A study of Mus musculus with 12 samples.

Results

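Collagens are the proteins of the extracellular matrix built from 3 alpha chains wound into a triple helix, and each chain has its own gene. The 43 genes described here are those of the deposited table whose symbol names a numbered collagen alpha chain (Col, a type number, a, a chain number). They are 43 of 22869 genes in the table, and 37 of them had enough reads to be tested. Each gene is represented by its transcript row with the most reads, since the 43 genes had 50 rows and 6 genes had more than 1. RNA-seq was made on cochlear epithelium of C57BL/6 mouse embryos at embryonic day 16.5, from 3 control embryos (Esrp1+/+, wild type) and 3 Esrp1 knockout embryos (Esrp1-/-). ESRP1 is an RNA-binding protein of epithelial cells that sets splicing patterns, and the comparison asks what differs in the developing cochlear duct when it is missing. A sample is the pooled RNA of both cochleae of 1 embryo, sequenced as 2 libraries (12 in all) that the table holds as 1 column. Manual dissection was followed by digestion of the mesenchyme with collagenase P (0.1 mg/ml, 15 min at 37 °C), an enzyme that digests the collagen proteins themselves. How the knockout allele was made is not given in the sources used here.

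Fibrillar collagens (types I, II, III, V, XI, XXIV and XXVII) form banded fibrils. Type IV collagen forms the network of basement membranes, type VI forms beaded filaments around cells, type VII anchoring fibrils, and types VIII and X hexagonal networks. FACIT collagens, such as type IX, sit on the surface of fibrils, transmembrane collagens span the cell membrane, and the multiplexins XV and XVIII lie in or near basement membranes. In the inner ear, types II, IX and XI are known as the fibril collagens of the tectorial membrane, the matrix that covers the hair cells, and the same types build the cartilage of the otic capsule around the duct. Chains of types IV, II, IX and XI are known deafness genes.

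Reads on genes numbered 12547301 to 21568517 per embryo. Esrp1 itself stood at 197, 102 and 118 CPM (counts per 1e6 reads, TMM-scaled) in controls 1, 2 and 3 and at 27.2, 34.3 and 39.1 CPM in knockouts 1, 2 and 3. By edgeR's quasi-likelihood test the log2 fold change, knockout over control, was -2.05 ± 0.26 (SE) with an adjusted p of 0.0354. Every knockout lay below every control. Embryos differed in other ways too. Xist was high in 4 embryos and at 5 and 3 reads in knockouts 2 and 3, where the Y-linked gene Ddx3y was high. Fos was at 153 and 64.6 CPM in control 1 and knockout 1 and at 1.00 to 7.27 CPM in the other 4 embryos.

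The labelled tissue was epithelium, and all 10 epithelial markers listed, Epcam among them (269 to 536 CPM), were read in every embryo. Markers of mesenchyme were present as well. All 14 listed had reads, and 13 passed the filter on low counts. Tbx18 stood at 150 to 352 CPM and Prrx1 at 31.4 to 66.6 CPM. The summed level of the mesenchyme list was 2103 to 2400 CPM in controls and 1728 to 2484 CPM in knockouts, and that of the epithelium list 1102 to 2075 CPM in controls and 1443 to 1846 CPM in knockouts. Each of these ranges overlapped between genotypes. In bulk tissue such as this, fewer cells of a type and less RNA per cell cannot be told apart.

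A pair of stretches of sequence bear on the results and are shown first. The first is the part of Col2a1 that only the longer transcript row holds, exon 2, which encodes the cysteine-rich domain of the amino-terminal propeptide. It lies at chr15:98000403-98000606 on the minus strand (GRCm38, the assembly that mm10 represents), within Col2a1 at chr15:97975602-98004724. Its capitals mark the 10 in-frame cysteine codons (TGT or TGC) among 67 codons read.

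Col2a1 exon 2: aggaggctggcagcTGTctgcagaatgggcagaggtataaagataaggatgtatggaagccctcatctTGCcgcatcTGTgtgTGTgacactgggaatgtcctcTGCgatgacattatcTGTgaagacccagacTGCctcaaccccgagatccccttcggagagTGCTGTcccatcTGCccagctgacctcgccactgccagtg

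The second is the 250 bases before the start of Col10a1, the collagen gene with the widest range of reads between embryos, taken from RefSeq (GRCm38.p6, plus strand, chr10:34389731-34389980). The capitals mark its single match to TATAAA, the TATA-box letters, searched on both strands, 32 bases before the start. That motif was found in 12.4% of all 32851 promoter windows of the RefSeq table. The match is a description and no measurement of binding. Col10a1 lies within Nt5dc1, which runs on the opposite strand, and no Nt5dc1 exon falls in the window.

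Col10a1 promoter: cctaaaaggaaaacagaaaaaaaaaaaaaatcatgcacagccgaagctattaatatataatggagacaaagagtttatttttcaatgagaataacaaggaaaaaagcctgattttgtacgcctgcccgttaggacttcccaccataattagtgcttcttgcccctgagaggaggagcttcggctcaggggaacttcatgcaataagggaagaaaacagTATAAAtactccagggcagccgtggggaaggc

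The levels of the collagens spanned several orders of magnitude, and the chains of types II, IX, III, XVIII and I led. Levels are compared between genes as FPKM, the authors' value per transcript length and library size, as the mean of 6 embryos. Col2a1 was highest at 224 FPKM, followed by Col9a2 at 178, Col9a3 at 77.3, Col3a1 at 73.7, Col18a1 at 68.2, Col9a1 at 67.2, Col1a2 at 55.9 and Col11a1 at 40.0 FPKM. The basement membrane chains Col4a1 and Col4a2 came next at 35.0 and 26.7 FPKM. Of the 43 genes, 15 had a mean of at least 10 FPKM and 28 of at least 1 FPKM. Neighbours in this order often did not differ beyond the spread between embryos: Col9a3 ranged from 67.1 to 89.7 FPKM, Col3a1 from 31.0 to 93.0 and Col18a1 from 53.6 to 86.3. The 6 genes below the filter on low counts were Col4a3, Col6a4, Col6a5, Col10a1, Col17a1 and Col19a1. Of these, Col6a5 had 1 read and Col19a1 had 9 over the 6 embryos, and Col10a1 had reads almost only in 1 embryo.

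**Figure D1:**
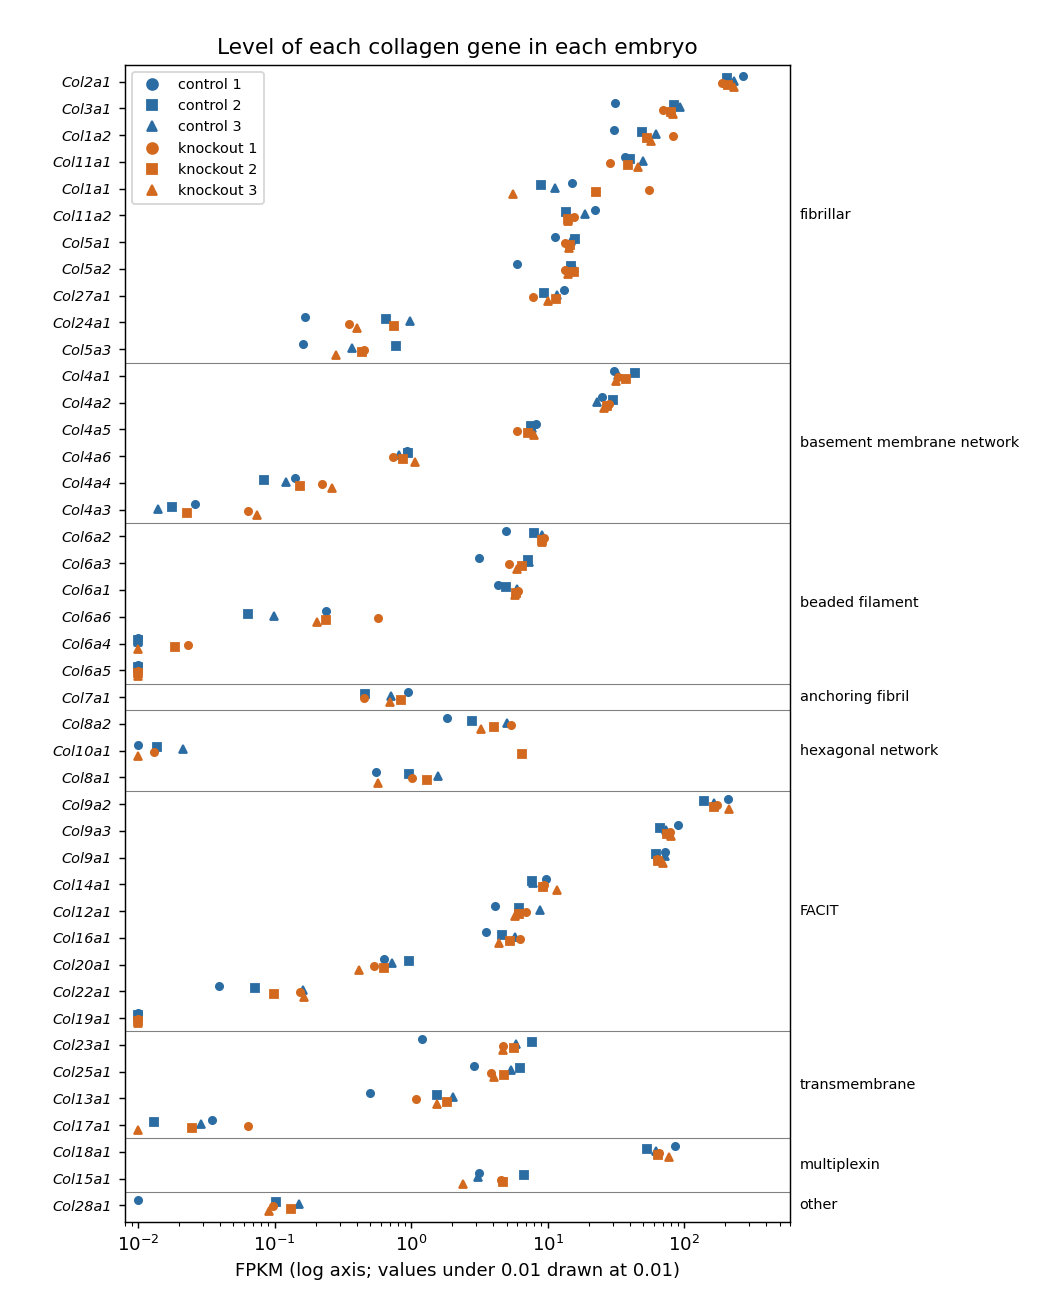
FPKM (log axis) of each of the 43 collagen genes in each embryo, grouped by structural class and ordered by mean level; blue symbols are the 3 controls, orange symbols the 3 Esrp1 knockouts, and the symbol shape gives the embryo number. Col2a1 stands at 190 to 268 FPKM, and control 1 lies to the left of the others for genes such as Col23a1, Col13a1 and Col28a1.

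As a group the collagens took a share of the reads that differed by less than the spread between embryos. Collagen genes held 1.15%, 1.03% and 1.14% of gene reads in controls 1, 2 and 3 and 1.05%, 1.09% and 1.15% in knockouts 1, 2 and 3, which is 1.11 ± 0.066% against 1.10 ± 0.050% (mean ± SD, n = 3 each). No collagen gene passed an adjusted p of 0.05 in edgeR's quasi-likelihood test (0 of 37, smallest adjusted p = 0.994), where 0.149% of all 14717 genes tested were called. DESeq2 called none of the 40 it tested either, against 1.01% of all genes it gave an adjusted p. At an unadjusted p under 0.05 there were 2, Col4a4 and Col20a1, against 4.77% of all genes. In CPM the groups did not overlap in 1 of the 37, Col20a1, against 9.84% of all genes. In FPKM they did not overlap in 2, Col4a4 and Col6a2, against 9.48% of all genes.

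The directions were split, with 17 collagen genes above 0 and 20 below, and a median log2 fold change of -0.0048 against 0.0016 for all genes tested. The log2 fold change was under 0.5 in size for 32 of 37. For 26 of 37 the 95% interval lay within ±1 on the log2 scale, that is, it left out a 2-fold change in either direction. The median half-width of that interval was 0.54 for collagens and 0.43 for all genes tested. For the other collagen genes the interval took in a 2-fold difference in at least 1 direction, so that one of that size is not excluded with this number of embryos. These intervals are not adjusted for the number of genes tested.

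**Figure D2:**
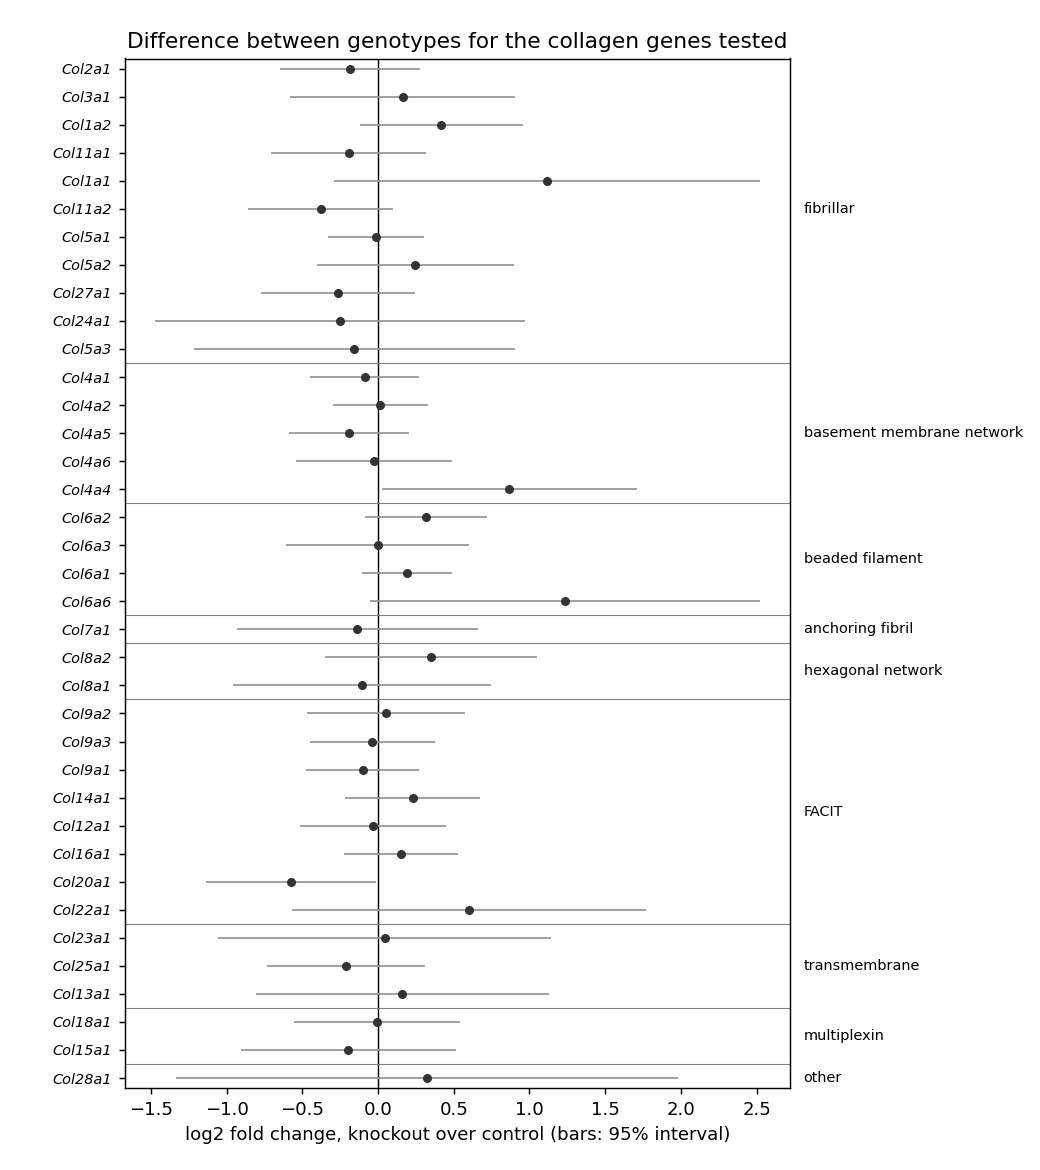
Log2 fold change, knockout over control, of the 37 collagen genes tested (points) with 95% intervals (bars), by structural class. All but Col4a4 and Col20a1 have an interval that reaches across 0, and the bars are widest for Col28a1, Col6a6 and Col1a1.

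Among the 11 fibrillar genes, 4 were above 0 and 7 below and none passed the test. Col2a1, the main fibril collagen of cartilage and a core collagen of the tectorial membrane, stood at 3656, 2471 and 2836 CPM in controls 1, 2 and 3 and at 2195, 2586 and 3099 CPM in knockouts 1, 2 and 3. The groups overlapped, with control 1 highest and knockout 1 lowest. Its log2 fold change was -0.19 ± 0.20 (SE, 95% interval -0.65 to 0.28). Col2a1 alone made up 21.8% to 30.9% of collagen reads in an embryo. Col11a1 and Col11a2, the type XI chains that join type II in the same fibrils, ranged over 28.4 to 50.2 and 13.6 to 22.3 FPKM and overlapped between genotypes (Col11a2 was at 13.6 to 22.3 FPKM in controls and at the lower end of that range in all 3 knockouts). Col3a1 and Col5a2, whose chains join type I collagen in soft tissue, were lowest in control 1, at 31.0 FPKM against 69.7 to 93.0 in the other 5 embryos for Col3a1 and at 5.93 FPKM against 13.4 to 15.6 for Col5a2. Col5a1, which pairs with Col5a2, was the steadiest collagen, with a highest CPM 1.22 times the lowest.

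Col1a1 was the most scattered of the well-read collagens. It encodes the alpha 1 chain of type I collagen, the main collagen of bone, skin and connective tissue, in which alpha 1 chains outnumber alpha 2. Its level was 173, 89.0 and 116 CPM in controls 1, 2 and 3 and 528, 232 and 61.4 CPM in knockouts 1, 2 and 3. Knockout 1 was highest and knockout 3 lowest of all 6, an 8.60-fold range that lay within the knockout group. Knockout over control, this came to a log2 fold change of 1.12 ± 0.62 (SE, 95% interval -0.29 to 2.52, edgeR's adjusted p = 0.994), and to 0.22 without knockout 1. In the authors' deposited table it was 1.02 with an FDR of 0.546.

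Its partner Col1a2, which encodes the alpha 2 chain, ranged only from 385 to 880 CPM, a 2.28-fold range. The ratio of Col1a1 to Col1a2 in FPKM was 0.490, 0.183 and 0.183 in controls 1, 2 and 3 and 0.656, 0.421 and 0.0988 in knockouts 1, 2 and 3. It was below 1 in all 6 embryos and spread 6.64-fold. Other pairs of chains that share a protein kept a much narrower ratio. Col4a1 to Col4a2 lay between 1.17 and 1.45, Col9a3 to Col9a1 between 1.03 and 1.24, Col4a5 to Col4a6 between 7.44 and 9.47, and Col6a2 to Col6a1 between 1.14 and 1.63. Of the 12 ratios computed, that of Col1a1 to Col1a2 had the widest range, followed by Col4a4 to Col4a3 at 2.49-fold, of which Col4a3 had only 66 reads in all. None of these ratios was tested between genotypes, and each overlapped between them. The bone marker Alpl was highest in knockout 2 (11.3 CPM, where the others had 3.07 to 6.63 CPM), not in knockout 1, and what moved with Col1a1 across embryos was not tested.

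**Figure D3:**
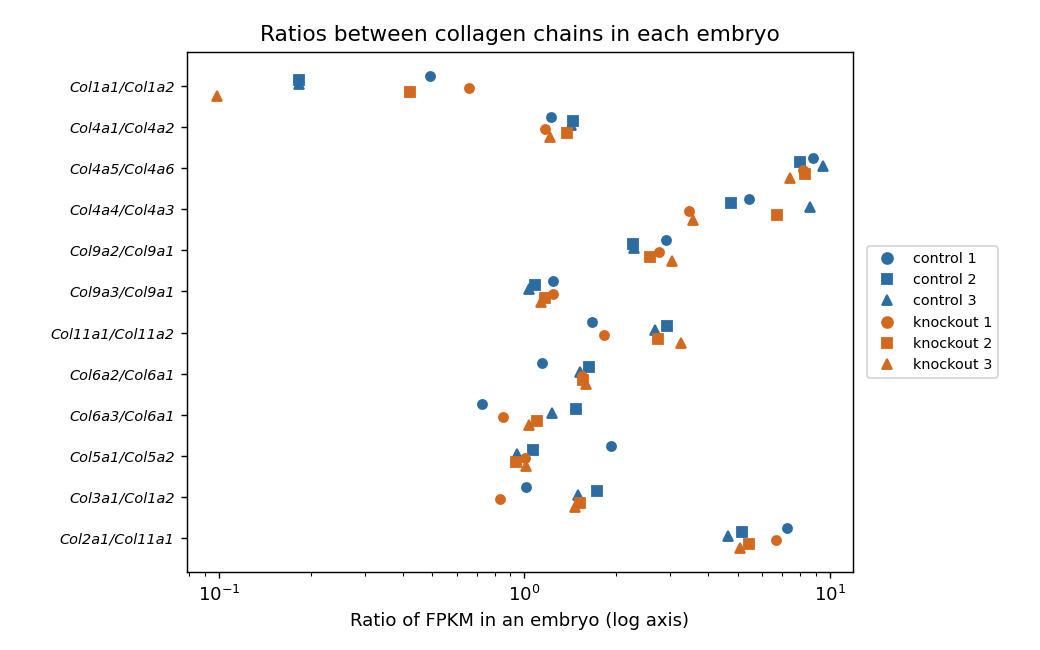
Ratio of FPKM (log axis) between 12 pairs of collagen chains in each embryo; blue symbols are controls, orange symbols knockouts, and the shape gives the embryo number. The ratio of Col1a1 to Col1a2 runs from 0.0988 in knockout 3 to 0.656 in knockout 1, while Col4a1 to Col4a2 stays within 1.17 to 1.45.

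Among basement membrane collagens the well-read chains varied little between embryos, and the least abundant ones varied most. Of the 5 type IV genes tested, 2 were above 0 and 3 below. Col4a1, one of the chains of the widespread type IV trimer, stood at 539, 677 and 518 CPM in controls 1, 2 and 3 and at 492, 598 and 540 CPM in knockouts 1, 2 and 3. The groups overlapped and the log2 fold change was -0.09 ± 0.16 (SE, 95% interval -0.45 to 0.27). Col4a2, the other chain of that trimer, was at 325 to 413 CPM. Type IV genes lie head to head in pairs: Col4a1 and Col4a2 on chromosome 8 overlap by 85 bases and Col4a4 and Col4a3 on chromosome 1 by 114 bases in the RefSeq annotation, while Col4a6 and Col4a5 on chromosome X are 1274 bases apart. Whether counting used strand is not given in the sources used here, so reads in those overlaps could count for either gene.

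Col4a4 had the smallest unadjusted p of the collagens, on few reads. It encodes a chain of the alpha 3, 4, 5 network of type IV collagen, known from the kidney and the cochlea. Its reads numbered 46, 33 and 42 in controls 1, 2 and 3 and 52, 52 and 80 in knockouts 1, 2 and 3, or 2.88, 1.50 and 2.26 against 3.96, 2.79 and 5.34 CPM. Knockout 2 lay just under control 1, so that the groups overlapped, while in FPKM (0.142, 0.0839 and 0.122 against 0.222, 0.153 and 0.265) every knockout lay above every control. In edgeR's quasi-likelihood test the difference was 0.87 ± 0.37 on the log2 scale (SE, 95% interval 0.02 to 1.71), with an unadjusted p of 0.0449 and an adjusted p of 0.994. Col4a3, its partner chain, had 9, 7 and 5 reads in controls 1, 2 and 3 and 15, 8 and 22 in knockouts 1, 2 and 3, too few to test. Col4a5, the third chain of that network and far better read, was at 104 to 132 CPM in controls and 80.0 to 120 CPM in knockouts.

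Of the type VI genes, Col6a2 and Col6a3 were lowest in control 1, and the little-read Col6a6 varied most. Col6a2, which encodes one of the main chains of the beaded filaments, stood at 49.3, 69.5 and 80.0 CPM in controls 1, 2 and 3 and at 78.7, 81.2 and 87.7 CPM in knockouts 1, 2 and 3. In CPM knockout 1 fell just below control 3, while in FPKM (4.96, 8.01 and 9.03 against 9.39, 9.14 and 9.14) every knockout lay above every control. Its log2 fold change was 0.32 ± 0.18 (SE, 95% interval -0.09 to 0.72). Col6a3, another main chain, was at 90.4 CPM in control 1 and 126 to 188 CPM in the other 5 embryos. Col6a6, a little expressed alpha chain, had the highest fold change among the collagens tested. It had 71, 23 and 31 reads in controls 1, 2 and 3 and 117, 76 and 56 in knockouts 1, 2 and 3. Knockouts 2 and 3, at 4.08 and 3.74 CPM, lay below control 1 at 4.45 CPM, and the log2 fold change was 1.23 ± 0.57 (SE, 95% interval -0.05 to 2.52, adjusted p = 0.994, edgeR). Without control 1 it was 2.03 (adjusted p = 0.232) and without knockout 1 0.72 (adjusted p = 0.999).

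Col7a1, the anchoring fibril collagen of stratified epithelia, was at 21.4, 8.94 and 14.4 CPM in controls 1, 2 and 3 and at 8.54, 16.9 and 14.9 CPM in knockouts 1, 2 and 3. The log2 fold change of -0.14 ± 0.35 (SE) was 0.21 without control 1 and 0.094 without knockout 1, so its sign turned without either embryo. Col8a2, a hexagonal-network collagen known from Descemet's membrane of the cornea, was at 19.6, 25.6 and 47.8 CPM in controls and 47.9, 38.2 and 32.8 CPM in knockouts. Its groups overlapped and its log2 fold change was 0.35 ± 0.31 (SE, 95% interval -0.35 to 1.05). Col8a1 was at 7.52 to 19.1 CPM in controls and 7.54 to 16.1 CPM in knockouts.

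The FACIT genes were led by type IX. Col9a2, one of the 3 chains of type IX collagen, stood at 1410, 820 and 990 CPM in controls 1, 2 and 3 and at 977, 999.8 and 1366 CPM in knockouts 1, 2 and 3. The highest and the lowest embryo were both controls, and the log2 fold change was 0.05 ± 0.23 (SE, 95% interval -0.47 to 0.58). The other chains, Col9a1 and Col9a3, had 1.37-fold and 1.54-fold ranges over the 6 embryos. Of the 8 FACIT genes tested, 4 were above 0 and 4 below.

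Col20a1, a little-studied FACIT collagen, was the 1 collagen whose groups did not overlap in CPM. It was at 6.52, 8.57 and 6.63 CPM in controls 1, 2 and 3 and at 4.50, 5.85 and 4.20 CPM in knockouts 1, 2 and 3, from 59 to 189 reads. RefSeq places another gene model, Gm30797, over part of it, and reads there could belong to either. Every knockout was below every control in CPM, but not in FPKM, where knockout 2 and control 1 lay side by side at 0.633 and 0.632. With a log2 fold change of -0.58 ± 0.25 (SE, 95% interval -1.14 to -0.01), its unadjusted p was 0.0455 and its adjusted p 0.994 in edgeR's quasi-likelihood test, so it did not pass the threshold. The smallest two-sided p that an exact permutation test of 3 against 3 embryos can give is 0.10.

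The transmembrane collagens were set apart by 1 control embryo. Col23a1, the best read of them per length, stood at 16.6, 92.3 and 72.7 CPM in controls 1, 2 and 3 and at 54.2, 70.8 and 62.5 CPM in knockouts 1, 2 and 3. Control 1 lay far under the other 5 embryos, and the remaining controls lay above all knockouts. The log2 fold change was 0.04 ± 0.48 (SE) with control 1 and -0.40 (adjusted p = 0.621, edgeR) without it. Col25a1, known for its part in motor innervation of muscle, was at 52.3, 98.9 and 88.1 CPM in controls and 58.5, 78.1 and 70.1 CPM in knockouts. It was again lowest in control 1, with a log2 fold change of -0.21 ± 0.23 (SE). Col13a1, which is concentrated at cell adhesion sites and neuromuscular junctions, was at 3.89 CPM in control 1 and at 7.09 to 13.8 CPM in the others.

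Col18a1, the source of the fragment endostatin and a heparan sulfate proteoglycan of basement membranes, was the fifth most abundant collagen. It stood at 1156, 631 and 744 CPM in controls 1, 2 and 3 and at 739, 769 and 1016 CPM in knockouts 1, 2 and 3. Control 1 was highest, and the log2 fold change of -0.0048 ± 0.24 (SE, 95% interval -0.55 to 0.54) was 0.29 without control 1. Col15a1, the other multiplexin, was at 40.9, 75.7 and 36.2 CPM in controls and 49.1, 54.6 and 29.8 CPM in knockouts. It was highest in control 2 and lowest in knockout 3, with a log2 fold change of -0.20 ± 0.31 (SE) that was 0.21 without control 2. The endothelial list had the same extremes, with a summed level of 502 CPM in control 2 and 232 CPM in knockout 3 (other embryos 255 to 402 CPM), and its part in the Col15a1 values was not tested. Col28a1, a collagen known from peripheral nerve, had 1, 22 and 28 reads in controls and 12, 25 and 15 in knockouts. Its single read in control 1 stood beside a list of 10 neuronal and glial markers, 5 of which were lowest in control 1 (Nefl was at 21.4 CPM there and at 130 to 207 CPM in the other embryos). Col28a1 had a log2 fold change of 0.33 ± 0.73 (SE), which was -0.19 without control 1.

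Control 1 was the lowest of the 6 embryos in 16 of the 37 collagen genes tested (43.2%) and the highest in 9 (24.3%). Over all genes tested it was lowest in 21.5% and highest in 20.3%. Knockout 2 was lowest in none of the 37 and knockout 1 in 9. The 16 lowest there were the fibrillar Col1a2, Col3a1, Col5a2, Col5a3 and Col24a1, the beaded filament genes Col6a2 and Col6a3, the network genes Col8a1 and Col8a2, the FACIT genes Col12a1, Col16a1 and Col22a1, the transmembrane Col13a1, Col23a1 and Col25a1, and Col28a1. The 9 highest there were Col2a1, Col11a2, Col27a1, Col4a5, Col7a1, Col9a1, Col9a2, Col9a3 and Col18a1. Among markers, 8 of the 13 mesenchyme genes tested were lowest in control 1, and Tbx18, Pdgfra and Pou3f4 stood there at 150, 121 and 46.7 CPM. The other 5 embryos had 250 to 352, 157 to 269 and 70.3 to 100.4 CPM of them. The list was not low there throughout. Of the 13, 1 was highest in control 1, Lum, at 1039 CPM against 458 to 794 CPM in the others. The summed list was lowest in knockout 1 (1728 CPM), with 2103 CPM in control 1. Of the 10 epithelial genes, 6 were highest in control 1. The part of these markers in the collagen values was not tested.

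**Figure D4:**
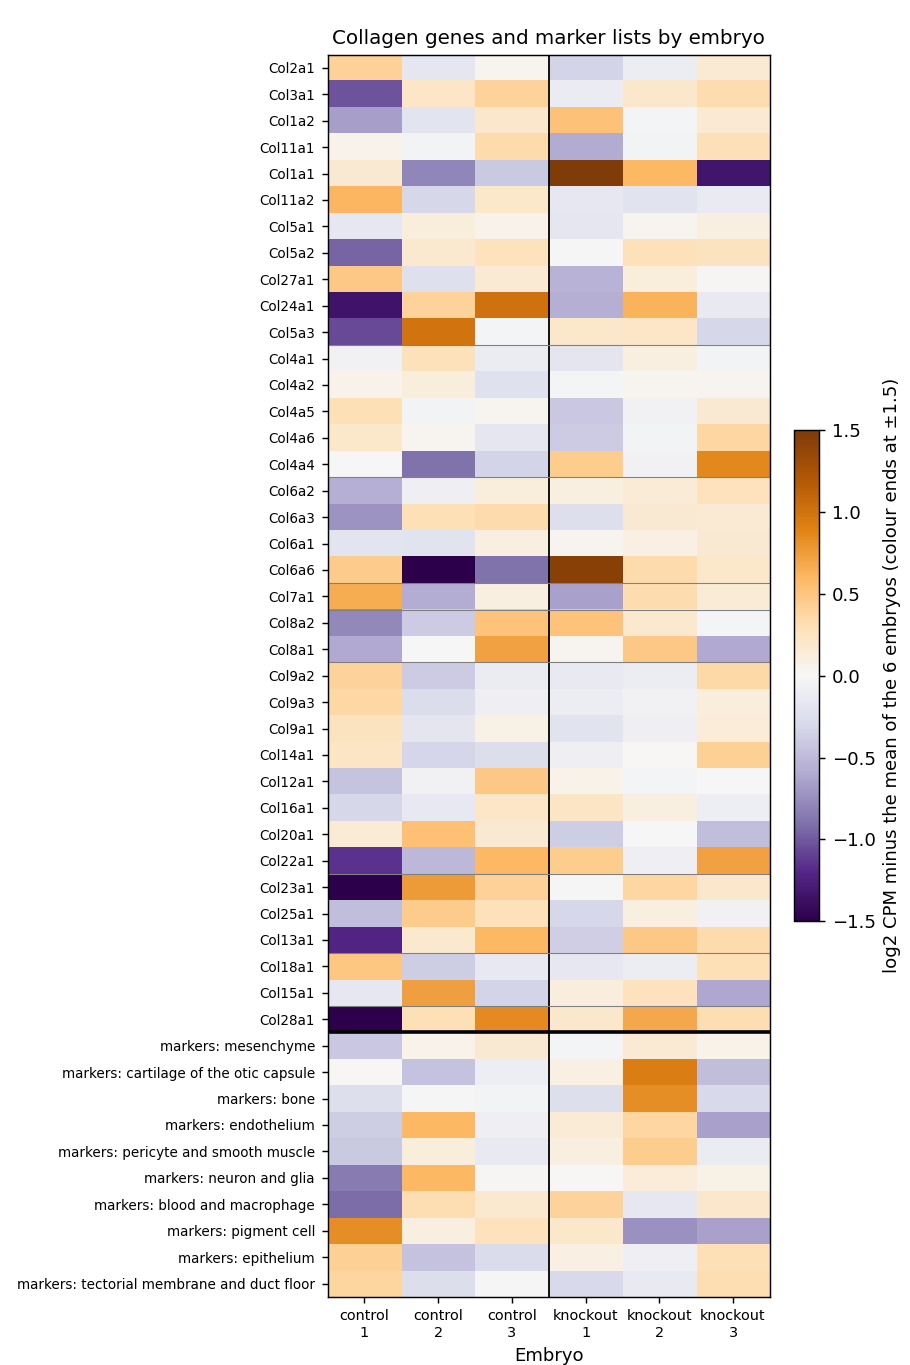
Log2 CPM relative to its average over the 6 embryos for the 37 collagen genes tested (upper rows, by class) and, below the thick line, the mean of that value over the genes of each marker list; columns are the embryos, orange is above and purple below the mean. Control 1 is purple for Col23a1, Col28a1, Col24a1 and Col3a1 and for the mesenchyme list (-0.42), and orange for the epithelium list (0.42).

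Col10a1, the network collagen of hypertrophic cartilage, was read in 1 embryo. It had 0, 2 and 3 reads in controls 1, 2 and 3 and 1, 824 and 1 reads in knockouts 1, 2 and 3. The other knockouts were at the level of the controls, so the difference lay in a single embryo and not between genotypes. Col10a1 did not pass the filter on low counts. With every gene tested it had an adjusted p of 0.478 (edgeR's quasi-likelihood test). DESeq2 gave it no p-value. In the authors' deposited table it was the only collagen with an FDR under 0.05, at 0.000144 with a log2 fold change of 6.85.

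Knockout 2 also stood above the others in some, not all, further genes of cartilage and bone. It was the highest embryo in 4 of the 8 cartilage markers tested and in all 3 bone markers tested, against 7.69% of all genes tested. The cartilage marker Mia1 was lowest there (93.6 CPM, others 99.3 to 166 CPM) and Lect1, Matn4 and Ucma were higher in another embryo. Of the 8 cartilage markers, 7 had a log2 fold change above 0 (median 0.77) and none passed the threshold. Matn1 had the smallest adjusted p of that list (0.524, edgeR). It was higher in every knockout, at 19.7, 6.94 and 11.3 CPM in controls 1, 2 and 3 and 24.3, 35.2 and 26.3 CPM in knockouts 1, 2 and 3. The genes that follow were chosen after their values were seen. Ibsp, a bone matrix sialoprotein, had 288 reads there and 5 to 21 in the other 5 embryos. Comp, a cartilage matrix protein, had 161 against 1 to 10, and Matn3, a cartilage matrilin, 81 against 0 to 10. Hapln1, which links proteoglycan to hyaluronan in cartilage, had 1098 against 58 to 327, and Acan, the main cartilage proteoglycan, 443 against 35 to 164. Ihh, a signal of prehypertrophic chondrocytes, had 28 against 1 to 4. Bglap, the osteocalcin gene, was at 0 reads in all 6 embryos and Mmp13, a collagenase of late hypertrophic cartilage, at 0 to 8. Only 4 genes of the table had at least 100 reads in knockout 2 and at least 10 times those of every other embryo: Col10a1, Comp, Ibsp and 3110079O15Rik. By the same rule knockout 1 had 2 genes and each of the other 4 embryos none.

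The cartilage collagens that are also made in the duct did not stand out in that embryo. In knockout 2 Col2a1 was at 211 FPKM, within the 190 to 268 FPKM of the other embryos, Col9a1 was at 64.1 within 61.9 to 72.2 FPKM, and Col11a2 at 173 within 162 to 305 CPM. How far the summed level of the cartilage list moved with the collagens was not tested. That level was 861 to 1456 CPM in controls and 1152 to 1381 CPM in knockouts, most of it from Lect1.

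**Figure D5:**
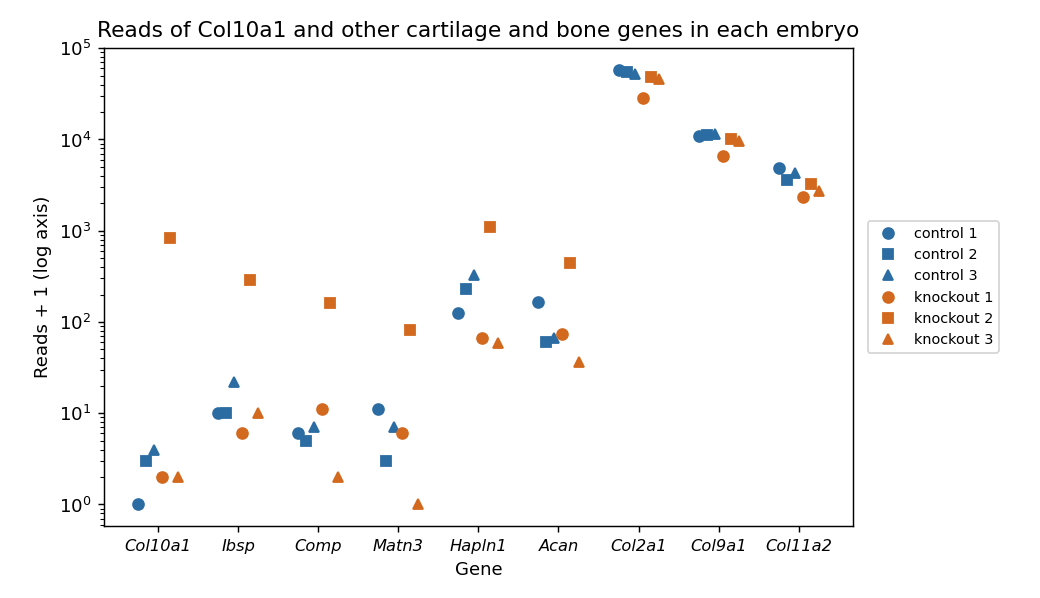
Reads plus 1 (log axis) of Col10a1, of 5 cartilage and bone genes and of 3 cartilage collagens in each embryo; blue symbols are controls, orange symbols knockouts, and the shape gives the embryo number. Knockout 2 has 824 reads of Col10a1 against 0 to 3 in the other embryos, and lies among the others for Col2a1, Col9a1 and Col11a2.

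Since ESRP1 sets splicing, the rows of collagen genes with several transcripts were compared too. For each further row, its reads were subtracted from those of the gene's main row. The difference was divided by all reads of the main row. Where a further row has bases of its own, the difference is net of the reads on those. Of 7 collagen pairs of rows, 4 had a large enough difference, and none passed limma's test on the log2 odds (smallest adjusted p = 0.938). Over all 1774 pairs 0% were called, and 92 pairs had an unadjusted p under 0.05. None of the 4 collagen pairs was among those 92. Exon exchanges that leave the count of a row unchanged would be missed.

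In Col2a1 the bases that only the longer row holds, most of them exon 2, had a low read density in these embryos. Exon 2 is kept in the isoform of chondroprogenitors and several non-cartilage tissues and skipped in mature cartilage. The reads only in the longer row came from the 204 bases printed above and 38 non-coding bases of exon 1. They made up 0.389%, 0.576% and 0.695% of the longer row in controls 1, 2 and 3 and 0.611%, 0.594% and 0.633% in knockouts 1, 2 and 3, or 0.554 ± 0.154% against 0.613 ± 0.020% (mean ± SD, n = 3 each). The knockouts lay within the range of the controls. Per base, these stretches had 8.21% to 14.7% of the read density of the whole row. In log2 odds the difference was 0.19 ± 0.23 (SE, limma's adjusted p = 0.956).

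In Col6a3 the rows differ mainly in exons 3, 4 and 6 (618, 603 and 600 bases, between 90813215 and 90828477 on chromosome 1, minus strand), which encode von Willebrand factor A domains near the amino terminus. The net difference, as a share of the main row, was 3.05%, 3.99% and 4.56% in controls and 3.50%, 3.49% and 3.00% in knockouts, with overlapping groups. The further row of this pair has 746 bases of its own, and those of Col25a1 and Col6a6 have 4281 and 373. Col25a1 gave 6.06 ± 0.37% in controls and 6.52 ± 0.13% in knockouts. Col6a6, the pair with the smallest unadjusted p of the 4 (0.0775, limma), gave 69.0%, 69.6% and 77.4% in controls and 65.8%, 67.1% and 53.6% in knockouts. Every knockout was lower there, on net differences of 16 to 77 reads an embryo. How many of all pairs separated in this way was not counted. For Col18a1 the 2 rows differed by at most 10 reads in any embryo, so the table does not separate them.

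Genes that fold, process, bind and break down collagen were examined in 6 lists of 74 symbols, of which 67 were in the table and 62 were tested. None passed an adjusted p of 0.05 (edgeR's quasi-likelihood test), 5 had an unadjusted p under 0.05 (4.77% of all genes did), and DESeq2 called 1 (1.01% of all genes). Of the 62, 42 were above 0, with a median log2 fold change of 0.10, against 7398 of all 14717 genes tested and a median of 0.0016. Adamts1, a secreted matrix protease, had the smallest adjusted p. It stood at 111, 77.4 and 92.8 CPM in controls 1, 2 and 3 and at 170, 348 and 364 CPM in knockouts 1, 2 and 3, with every knockout above every control. The difference was 1.65 ± 0.28 on the log2 scale (SE, edgeR's adjusted p = 0.118). It passed without knockout 1 (edgeR's adjusted p = 0.0228) and in DESeq2 (adjusted p = 1.61e-06). Without knockout 1, the knockouts left were 2 and 3, both low in Xist and high in Ddx3y. Every control was high in Xist, so genotype and that split cannot be told apart in this setting.

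Of the lists of partner genes, folding and modification alone was higher in every knockout when summed. Its 21 genes summed to 5193, 4525 and 5049 CPM in controls 1, 2 and 3 and to 5457, 5381 and 5957 CPM in knockouts 1, 2 and 3, and 15 of the 21 were above 0. Such a sum weights the most abundant genes (Hspa5, Serpinh1 and P4hb) and was not tested. How often sums of other gene lists separate in this way was not counted. Ppib, the cyclophilin of the prolyl 3-hydroxylase complex, had the smallest adjusted p of the list, 0.515. It was at 363, 338 and 344 CPM in controls and at 596, 450 and 460 CPM in knockouts. For Loxl1, a lysyl oxidase that cross-links matrix fibres, the levels were 45.5, 40.1 and 55.2 CPM in controls and 80.8, 60.8 and 68.5 CPM in knockouts (adjusted p = 0.495). Sox9, the transcription factor that drives Col2a1, Col9a1 and Col11a2, was at 207 to 265 CPM in controls and 205 to 316 CPM in knockouts.

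Of the 7 markers tested for the tectorial membrane and the duct floor, 1 passed the threshold, where 0.149% of all genes tested did. Epyc, a small leucine-rich proteoglycan, fell from 542, 599 and 590 CPM in controls 1, 2 and 3 to 198, 184 and 243 CPM in knockouts 1, 2 and 3. This is a log2 fold change of -1.47 ± 0.15 (SE, edgeR's adjusted p = 0.0144). Without control 3 or without knockout 2 no gene tested passed the threshold, Epyc included. The tectorial membrane genes Tecta and Otog overlapped between genotypes, at 1539 to 2755 and 435 to 808 CPM in controls and at 1699 to 3668 and 583 to 904 CPM in knockouts. Otoa and Calb1 did not overlap, in opposite directions, and did not pass the threshold. Otoa was at 177, 79.2 and 110 CPM in controls and 312, 187 and 258 CPM in knockouts (edgeR's adjusted p = 0.495). Calb1 was at 88.8, 77.3 and 90.2 CPM in controls and 43.4, 24.2 and 43.4 CPM in knockouts (edgeR's adjusted p = 0.132). Over all genes tested, 9.84% did not overlap. No member of the other 9 marker lists passed the threshold.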

How the data were processed

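Cochlear epithelium of 6 embryos was analysed, 3 per genotype. The authors deposited read counts per RefSeq transcript and embryo, with no normalisation, per the file headers. FPKM per embryo was also deposited, scaled by the authors by transcript length and library size, per the file headers. The log2 fold changes and the FDR (adjusted p-value) of the authors' deposited table come from edgeR over transcript rows, per the file headers, and are quoted only where named. The submitters' processing notes name edgeR and mm10. Aligner and counter: not given in the sources used here. Left unused were 8 columns of values per embryo or group.

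The row with most reads stood for a gene. Counts were filtered with filterByExpr (minimum count 10) and scaled by TMM in edgeR 4.0.16 (R 4.3.3), and knockout was compared with control by the quasi-likelihood F test, Benjamini-Hochberg adjusted over all 14717 genes, with a threshold of 0.05. Standard errors were derived from the F statistic. Row pairs with at least 60 reads in the difference were tested with limma 3.58.1 on log2 odds (pseudocount 0.5). Alternatives included DESeq2 1.42.0. The gene test and the pair test were tested on simulated data. Read numbers cover counting error only. Exons came from GENCODE M21 and the promoter from RefSeq, which held one for 35 of the 43 genes. Row pairs were matched to GENCODE transcripts through their RefSeq names.

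Named collagens are, per structural class, the member with the highest mean FPKM and the one with the smallest unadjusted p, with their values in every embryo. Other lists name members past the threshold or the smallest adjusted p. Further genes were named after their values were seen. The members and lists were chosen with earlier results of these data known.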

Additional observations from a re-analysis of the deposited data

How the results depend on the processing

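The number of collagen genes past the threshold, in either direction, was 0 under every alternative run, with a smallest adjusted p of 0.108 (Col1a1, Xist as a covariate) and 0.123 (Col6a6, without both embryos numbered 1). No collagen pair of rows passed under any alternative. Of the 37 genes, 17 were above 0 by counts and 22 by limma on log2(FPKM + 1). Over all genes, 22 calls became 165 with DESeq2, 159 without both embryos numbered 1, 6 with Xist as a covariate and 0 to 30 without 1 embryo (0 without control 3 or knockout 2). With the replicate number as a block there were 6. Same-numbered embryos correlated at only 0.077, 0.18 and 0.029 in their deviations from the group means, and 1 of the 3 numbers matched best with itself, so the numbers were not taken as pairs, and the block changed no collagen call. Among partner genes, 0 became 1 (Adamts1) with DESeq2 and without both embryos numbered 1, and 0 to 1 without 1 embryo. Leaving out knockout 1, alone or with control 1, leaves Xist high in every control and low in every knockout. Genotype and that split cannot be told apart in those settings.

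Some log2 fold changes that were not called changed sign. Without both embryos numbered 1 they were 0.090 for Col2a1, 0.45 for Col7a1, -0.047 for Col8a2, -0.32 for Col23a1, 0.37 for Col18a1 and -0.085 for Col28a1. With Xist as a covariate they were -0.14 for Col9a2 and -0.20 for Col23a1. Col18a1 was 0.055 with limma on log2(FPKM + 1) and 0.032 with the replicate block. Without 1 embryo, Col4a1 ran from -0.16 to 0.039, Col7a1 from -0.40 to 0.21, Col9a2 from -0.13 to 0.30, Col23a1 from -0.40 to 0.48, Col18a1 from -0.18 to 0.29, Col15a1 from -0.39 to 0.21 and Col28a1 from -0.19 to 0.96. The cause of these changes was not tested. With 3 embryos a group, differences under about 2-fold in the scattered genes are beyond the precision of these data.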
